A study of Homo sapiens with 8 samples.

Results

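The genes described here are 10 regulators that remove or read methylation at lysine 4 of histone H3 (H3K4). They are the demethylases KDM1A, KDM1B, KDM5A, KDM5B and KDM5C, and PHF8, BPTF, CHD1, ING4 and TAF3, whose products bind trimethylated H3K4 (H3K4me3). Members were found by gene symbol in the platform annotation, with the brightest probe set kept where a gene had several. Of the 10 genes, 9 were found, each with 1 probe set, among 21448 probe sets. No probe set carried the symbol KDM1A in the annotation used, so KDM1A was not analysed here. The cells were CCRF-CEM, an established human line of T-cell acute lymphoblastic leukaemia (T-ALL). In the 4 OICR-9429 samples, cells received 1 µM of the compound for 1 h before they were embedded in bovine type I collagen at 1.7 mg/mL, where they stayed for 1 h. The 4 untreated samples went into the same gel without the compound, and the labels mention no vehicle. OICR-9429 is a small molecule that occupies the site on WDR5 through which it holds MLL-family H3K4 methyltransferases. Replicates carry the numbers 1 to 4 in both groups and are labelled biological, but nothing says whether they came from separate passages or days, so the spread that p-values rest on may be technical.

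Methylation of H3K4 is written by the KMT2 and SETD1 enzymes around WDR5, and H3K4me3 marks the start of active genes. It is erased by 2 enzyme families. KDM1 proteins use a flavin cofactor and act on mono- and dimethylated H3K4, whereas KDM5 proteins are iron- and oxoglutarate-dependent JmjC enzymes that act on tri- and dimethylated H3K4. Readers dock on the mark through PHD fingers or chromodomains and bring remodelling, acetylation or transcription initiation complexes to promoters. PHF8 combines both activities, since its PHD finger binds H3K4me3 while its JmjC domain acts on other histone residues.

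Values are log2 expression after robust multi-array averaging (RMA), as deposited. Array medians ran from 6.38 to 6.46, and precision is limited by there being 8 arrays. Binding strength varies between probe sets, so levels of different genes were not tested against each other. Bright and dim describe the signal of a probe set only. Of the T-lineage markers CD3E, a chain of the T-cell receptor complex, was bright, at 11.61 to 11.97 in OICR-9429 cells and 11.66 to 11.94 in untreated cells, the brightest of 11. CD3D, CD3G, CD5 and CD7 stayed at or above 8.42 on all 8 arrays. TAL1, NOTCH1 and RAG1 ran from 6.81 to 8.34 over the 8 arrays. CD2 was dimmer, at 6.09 to 7.13 in OICR-9429 cells and 5.96 to 7.16 in untreated cells. PTCRA was dim, at 5.84 to 6.47 in OICR-9429 cells and 5.97 to 6.24 in untreated cells. CD1A ran from 5.49 to 8.41 in OICR-9429 cells and from 5.57 to 8.19 in untreated cells. It averaged 8.30 at number 3 and 5.53 at number 4. The B-cell marker CD79A was also bright, at 8.90 to 9.81 in OICR-9429 cells and 9.12 to 9.92 in untreated cells. MS4A1 stayed at or below 4.15 and PAX5 at or below 6.82 on all 8 arrays. Both arrays of replicate number 4 stood apart from the other 6. At that number 51.8% of all probe sets differed from the mean of numbers 1 to 3 at an adjusted p under 0.05 (limma), and 10.8% were lower by 2-fold or more. Counts of the 9 genes that differed are therefore given with and without it. Variance shares and profile distances are given for all 8 arrays only.

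For none of the 9 genes did OICR-9429 cells differ from untreated cells beyond the test's threshold. In limma without a block, 0 of 9 passed an adjusted p of 0.05 and 0 had an unadjusted p under 0.05, where the background over all probe sets was 0% and 0.49%. With the replicate number as a block, 0 of 9 again passed and 0 had an unadjusted p under 0.05, where the background was 0% and 5.55%. The differences (OICR-9429 minus untreated) ran from -0.05 for KDM5C to 0.15 for CHD1, with a median of 0.09, against a median of 0.0050 over all probe sets. Of the 9 genes 8 lay above 0, as did 51.7% of all probe sets, and each gene's 95% interval included 0. The groups overlapped for 9 of 9 genes, and 0.737% of all probe sets had groups that did not overlap. With the replicate block the 9 intervals all lay within 1.5-fold in either direction, as did those of 19448 of the 21448 probe sets.

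**Figure D1:**
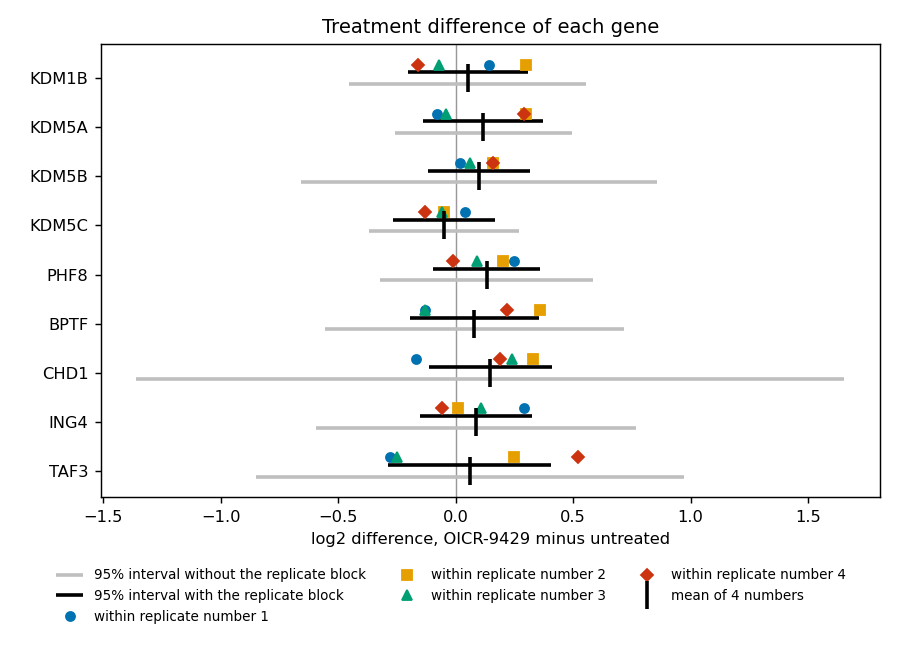
Log2 difference, OICR-9429 minus untreated, of the 9 genes within each of the 4 replicate numbers (coloured points), with the mean over numbers (vertical tick) and its 95% interval in limma with the replicate block (black) and without it (grey). Every interval crosses 0, and the interval of CHD1 narrows most with the block, to between -0.11 and 0.41.

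Among the erasers, KDM1B encodes the flavin-dependent demethylase known for its action in gene bodies and in oocytes. It measured 7.64, 7.77, 7.83 and 7.04 in OICR-9429 replicates 1 to 4, against 7.50, 7.47, 7.90 and 7.20 in untreated replicates 1 to 4. Both arrays of number 4 were the lowest of their group. The difference of 0.05 had an SE of 0.22 without and 0.11 with the replicate block, and it was above 0 in 2 of 4 numbers.

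KDM5A encodes the JmjC demethylase first known as a partner of the retinoblastoma protein. Its values were 8.60, 8.88, 8.94 and 8.74 in OICR-9429 cells and 8.68, 8.58, 8.98 and 8.45 in untreated cells. Number 3 was highest in both groups, and the numbers otherwise lay close together. Within numbers the difference was -0.08, 0.30, -0.04 and 0.29, so numbers 2 and 4 lay above 0 and numbers 1 and 3 slightly below. The mean difference was 0.12 ± 0.11 (SE with the replicate block, adjusted p = 0.883 in limma).

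KDM5B encodes the KDM5 enzyme best known from breast cancer and from repression of cell cycle inhibitors. It stood at 9.01, 10.09, 9.85 and 10.36 in OICR-9429 cells and at 8.99, 9.93, 9.79 and 10.20 in untreated cells. Number 1 was lowest and number 4 highest in both groups. Of the 9 genes KDM5B alone had the same sign in 4 of 4 numbers, at 0.02, 0.16, 0.06 and 0.16, where 12.6% of all probe sets had one sign throughout and 5.94% were above 0 throughout. Its difference of 0.10 had an SE of 0.34 without and 0.09 with the replicate block, and the adjusted p with the block was 0.883 (limma).

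KDM5C encodes the X-linked KDM5 enzyme, known for its mutations in intellectual disability. It measured 9.61, 9.70, 9.45 and 9.50 in OICR-9429 cells and 9.57, 9.75, 9.51 and 9.63 in untreated cells. All 8 arrays lay between 9.45 and 9.75, a narrower range than for any other of the 9 genes. KDM5C was the single gene with a mean difference below 0, at -0.05 ± 0.09 (SE with the replicate block).

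PHF8 encodes the PHD and JmjC protein described above. It measured 7.76, 7.65, 7.43 and 7.02 in OICR-9429 cells and 7.51, 7.45, 7.34 and 7.03 in untreated cells. Number 4 was lowest in both groups. The differences within numbers were 0.25, 0.20, 0.09 and -0.01, with a mean of 0.13 ± 0.10 (SE with the replicate block). The block gave PHF8 an adjusted p of 0.857 (limma), the smallest of the 9 genes, and an interval of 0.937-fold to 1.28-fold.

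**Figure D2:**
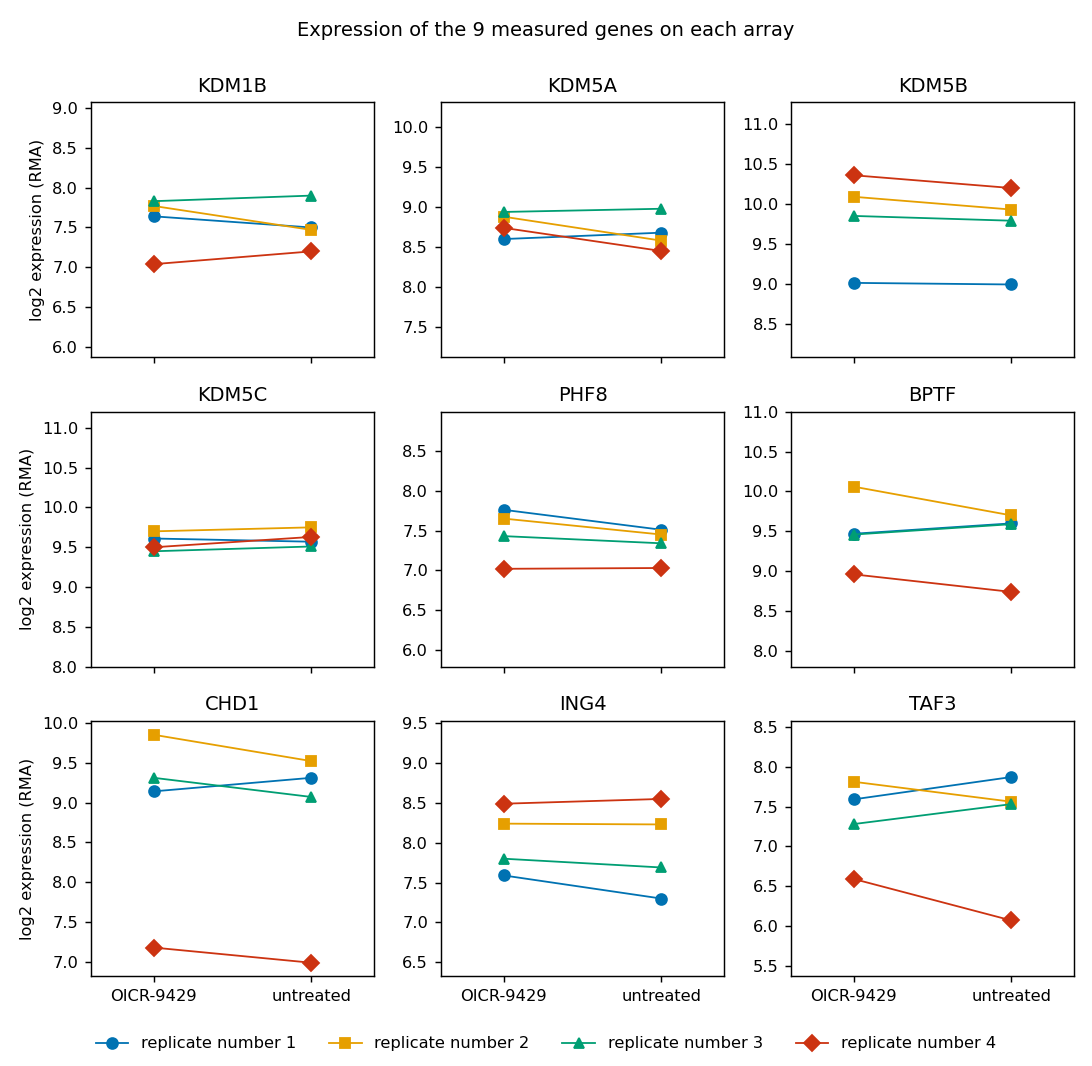
Log2 expression of the 9 genes on each array, with OICR-9429 on the left and untreated on the right of each panel, and lines that join arrays of the same replicate number. Every panel spans the same log2 range. Number 4 sits apart for CHD1 (7.18 and 6.99) and TAF3 (6.59 and 6.07), and number 1 for KDM5B (9.01 and 8.99).

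Among the readers, BPTF encodes the largest subunit of the remodelling complex NURF, which binds H3K4me3 through a PHD finger. It measured 9.47, 10.06, 9.46 and 8.96 in OICR-9429 cells and 9.60, 9.70, 9.59 and 8.74 in untreated cells. Number 4 was lowest in both groups and number 2 highest. Within numbers the difference was -0.13, 0.36, -0.13 and 0.22, and its mean of 0.08 ± 0.12 (SE with the replicate block) became -0.013 without number 2.

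CHD1 encodes a remodeller with paired chromodomains that bind H3K4me3. It measured 9.14, 9.85, 9.31 and 7.18 in OICR-9429 cells and 9.31, 9.52, 9.07 and 6.99 in untreated cells. Both arrays of number 4 lay far below the other 6 arrays. The mean difference of 0.15 had an SE of 0.67, or of 0.11 once the replicate block was in the model. The interval with the block ran from 0.924-fold to 1.33-fold.

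ING4 encodes a small PHD finger protein of the HBO1 acetyltransferase complex. It measured 7.59, 8.24, 7.80 and 8.49 in OICR-9429 cells and 7.30, 8.23, 7.69 and 8.55 in untreated cells. In both groups number 1 was lowest and number 4 highest, as for KDM5B. The difference within number 1 was 0.29 and that of the other numbers -0.06 to 0.11, with a mean of 0.09 ± 0.10 (SE with the replicate block).

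TAF3 encodes a subunit of the general initiation factor TFIID that anchors it to H3K4me3. It measured 7.59, 7.81, 7.28 and 6.59 in OICR-9429 cells and 7.87, 7.56, 7.53 and 6.07 in untreated cells. Number 4 was lowest in both groups. TAF3 had the most uneven differences of the 9 genes, at -0.28, 0.25, -0.25 and 0.52 within numbers 1 to 4. Their mean was 0.06 ± 0.15 (SE with the replicate block), which became -0.093 without number 4 and -0.0033 without number 2.

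The 9 genes varied mainly with the replicate number. Number held a median of 91.3% of each gene's variance over the 8 arrays and treatment 1.06%, against 81.3% and 2.51% over all probe sets. In limma's F-test for any difference between numbers, with treatment in the model, 7 of 9 genes passed an adjusted p of 0.05, and 50.3% of all probe sets did. The exceptions were KDM5A (adjusted p = 0.237) and KDM5C (adjusted p = 0.450). The SEs and p-values of these comparisons rest on how the treatment difference varies over numbers, with 2 arrays a number. How far separate cultures of one number would vary is not measured.

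CHD1 spanned the widest range, with number means of 9.22, 9.69, 9.19 and 7.08, a 6.06-fold span. At number 4 it was 4.86-fold lower than the mean of the others (log2 difference -2.28 ± 0.13 SE, adjusted p = 3.54e-05, limma), and at number 2 it was 2.27-fold higher (1.19 ± 0.13, adjusted p = 0.00144). TAF3 was 2.42-fold lower at number 4 (-1.28 ± 0.17, adjusted p = 0.000574) and BPTF 1.74-fold lower (-0.80 ± 0.14, adjusted p = 0.00184). The readers CHD1, TAF3 and BPTF were thus called lower at the same number, and so were KDM1B and PHF8. KDM1B was 1.48-fold lower at number 4 (adjusted p = 0.00699) and PHF8 1.41-fold lower (adjusted p = 0.00702), and both calls were lost without OICR-9429 replicate 4, at adjusted p = 0.0877 and 0.0788.

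KDM5B and ING4 moved the other way. At number 4 KDM5B was 1.59-fold higher than the mean of the others (0.67 ± 0.11, adjusted p = 0.00137, limma) and ING4 1.64-fold higher (0.71 ± 0.12, adjusted p = 0.00155). Without number 1, the KDM5B difference at number 4 was 0.36 (adjusted p = 0.0442). At number 1 KDM5B was 2.05-fold lower (-1.04 ± 0.11, adjusted p = 0.00183) and ING4 1.65-fold lower (-0.72 ± 0.12, adjusted p = 0.00823). Without OICR-9429 replicate 1 these calls at number 1 were lost, with KDM5B at -0.98 (adjusted p = 0.0514) and ING4 at -0.86 (adjusted p = 0.0682). Without untreated replicate 1 they were lost too, with KDM5B at -1.09 (adjusted p = 0.0506) and ING4 at -0.59 (adjusted p = 0.135).

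In all, 2 of 9 genes were higher and 5 lower at number 4, where 26.3% of all probe sets were higher and 25.5% lower. At number 1, 1 was higher and 2 were lower (background 10.6% and 6.14%), at number 2, 2 were higher and 0 lower (15.4% and 11.6%), and at number 3, 0 of 9 differed (1.38%, with 1.18% higher and 0.2% lower). At number 4, CHD1 and TAF3 were lower by 2-fold or more and 0 of 9 higher by as much, where 10.8% and 2.71% of all probe sets were. The call above the others at number 1 was CHD1 (0.57 ± 0.13, adjusted p = 0.0242 in limma). Without OICR-9429 replicate 1 its adjusted p was 0.0738, without untreated replicate 1 it was 0.278, and it was 0.0510 to 0.0657 without untreated replicate 2 or either array of number 3. Without number 4 the difference was -0.21 (adjusted p = 0.393). The calls at number 2 were CHD1 and BPTF (0.58 ± 0.14, adjusted p = 0.0173). Without number 4 they were at 0.48 and 0.35 with adjusted p = 0.0621 and 0.153, and without OICR-9429 replicate 2 BPTF was at 0.39 with adjusted p = 0.234. Without both arrays of number 4, 2 of 9 genes still differed between numbers, KDM5B (adjusted p = 0.00920) and ING4 (adjusted p = 0.0258), and the background fell to 13.9% of probe sets. CHD1 then spanned 0.49 on the log2 scale over numbers 1 to 3 (adjusted p = 0.121), TAF3 0.33 and BPTF 0.36. Without number 1, limma's F-test no longer called KDM5B (adjusted p = 0.0770) or PHF8 (adjusted p = 0.0524). Without number 3 it no longer called KDM1B (adjusted p = 0.0772).

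**Figure D3:**
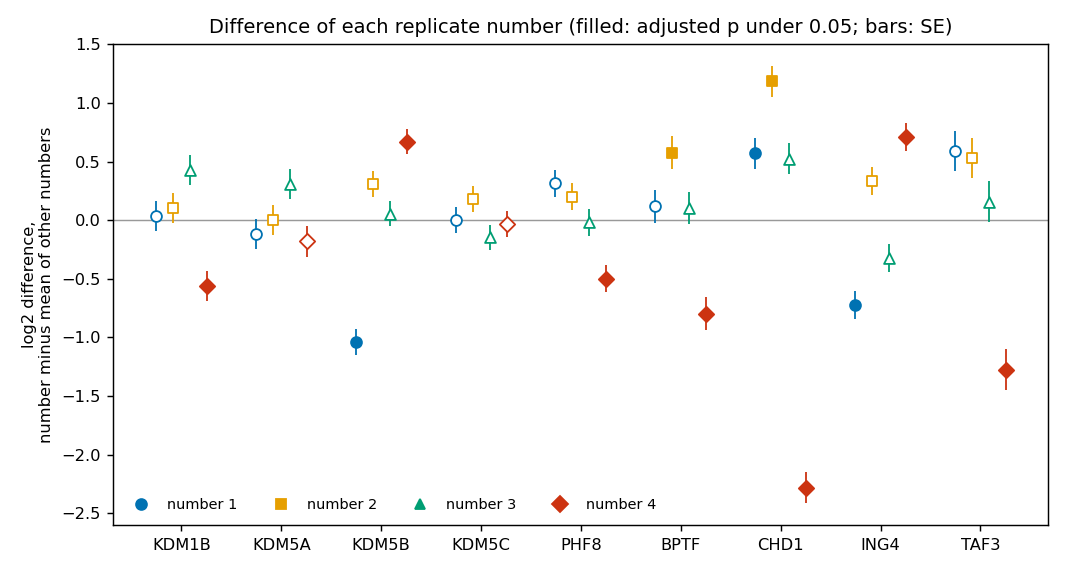
Log2 difference of each replicate number from the mean of the other 3, for the 9 genes, with bars that give the SE and filled symbols at an adjusted p under 0.05 (limma). Number 4 is below the others for CHD1 (-2.28), TAF3 (-1.28), BPTF (-0.80), KDM1B (-0.57) and PHF8 (-0.50), and above them for KDM5B (0.67) and ING4 (0.71).

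Some markers of non-T cells differed at number 4. All counts here stand against 26.3% of all probe sets higher and 25.5% lower at that number. Among myeloid markers, 3 of 5 passed the test as higher and 0 as lower, with a mean level of 6.19, against 5.56, 5.82 and 5.68 at numbers 1 to 3. Of 4 fibroblast and epithelial markers 2 were higher and 1 lower, of 3 B-cell markers 1 was higher and 1 lower, and of 11 T-lineage markers 3 were higher and 3 lower. By group, the array means of the myeloid list ran from 5.59 to 6.12 in OICR-9429 cells and from 5.53 to 6.26 in untreated cells, with LYZ dimmest (at or below 4.12 on all 8 arrays). CD68, a lysosomal protein of macrophages, averaged 8.38 at number 4, against 6.69 at the others (adjusted p = 4.7e-05, limma), and CD14 and CSF1R were also higher there, by 0.48 and 0.37. Of the 5 myeloid markers CD68 had the largest difference there, while LYZ (-0.0083) and MPO (-0.012) hardly differed and did not pass. The part of these markers in the differences between numbers was not tested.

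The promoters of the genes that moved most with number are shown to let the opposite groups be compared: KDM5B and ING4, highest at number 4, and CHD1 and TAF3, lowest there. Each sequence is the 250 bases before the RefSeq start (GRCh38.p14), 5′ to 3′ on the gene's strand, with CpG dinucleotides in capitals.
KDM5B (chr1:202808422-202808671, minus strand): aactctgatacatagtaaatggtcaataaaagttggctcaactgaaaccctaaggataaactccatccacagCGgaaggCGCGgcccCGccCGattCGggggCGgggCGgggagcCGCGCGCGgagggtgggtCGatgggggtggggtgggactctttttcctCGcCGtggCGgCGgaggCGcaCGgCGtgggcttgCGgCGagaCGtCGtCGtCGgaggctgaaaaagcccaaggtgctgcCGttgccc
ING4 (chr12:6663120-6663369, minus strand): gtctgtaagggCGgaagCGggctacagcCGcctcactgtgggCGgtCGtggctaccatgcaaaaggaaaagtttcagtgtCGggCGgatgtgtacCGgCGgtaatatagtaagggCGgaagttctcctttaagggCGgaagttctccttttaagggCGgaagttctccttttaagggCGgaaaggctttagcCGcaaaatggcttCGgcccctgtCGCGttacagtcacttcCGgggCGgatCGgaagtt
CHD1 (chr5:98929008-98929257, minus strand): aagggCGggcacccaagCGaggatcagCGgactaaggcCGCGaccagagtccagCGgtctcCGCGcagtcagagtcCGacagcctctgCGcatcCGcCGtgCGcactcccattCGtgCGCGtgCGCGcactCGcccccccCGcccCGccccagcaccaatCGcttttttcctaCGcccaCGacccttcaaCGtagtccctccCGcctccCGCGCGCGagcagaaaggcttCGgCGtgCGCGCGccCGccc
TAF3 (chr10:7818255-7818504, plus strand): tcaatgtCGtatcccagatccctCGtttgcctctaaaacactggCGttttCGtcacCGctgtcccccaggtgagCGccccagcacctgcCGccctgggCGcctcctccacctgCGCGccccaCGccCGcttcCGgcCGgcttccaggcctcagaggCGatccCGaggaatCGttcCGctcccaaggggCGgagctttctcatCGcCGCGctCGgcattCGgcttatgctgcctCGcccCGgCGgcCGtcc
H3K4me3 is known to associate with promoters rich in CpG. The sequences held 27 CpG in KDM5B, 20 in ING4, 36 in CHD1 and 28 in TAF3, against a median of 11 over 35116 RefSeq promoters of the same length (quartiles 3 and 23). KDM5B, CHD1 and TAF3 lay above the upper quartile and ING4 between the median and the upper quartile. Promoters were listed for 9 of the 10 genes, KDM1A included. The GC box GGGCGG (both strands) was in 7 of 9, and in 42.6% of all promoters. ING4 carried 8 copies, a number reached by 0.58% of promoters, while CHD1 carried 4, KDM5B 3 and TAF3 2. The letters AAGGGCGGAA, which contain that box, stood 5 times in ING4 (both strands). They were looked for after the sequence had been seen, as no run of 10 bases was more frequent in the ING4 promoter. That choice itself favoured ING4. Of all promoters 37 held them, and ING4 alone held them more than once. The MYC-type E-box CACGTG was in 0 of 9 promoters and in 6.3% of all, and the TATA box TATAAA in 0 of 9 and in 10.7%. A match describes letters only, and says nothing of a factor bound there.

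Partners of the 9 genes were described from lists. Among 11 partners of KDM1A in the CoREST complex and of KDM1B, 0 passed the test for OICR-9429, with a median difference of 0.04 and 8 above 0. The highest were RCOR3, a CoREST scaffold, at 0.31 (above 0 in 4 of 4 numbers, unadjusted p = 0.0157 in limma with the replicate block) and RCOR2 at 0.14. With that block 1 of the 11 had an unadjusted p under 0.05, as did 5.55% of all probe sets. The lowest were GSE1 at -0.23 and HMG20B at -0.11. At number 4, 3 of the 11 were higher and 7 lower, where 26.3% of all probe sets were higher and 25.5% lower. GSE1, a CoREST subunit, averaged 8.41 at number 4, against 9.54 at the other numbers (-1.12 ± 0.13 SE, adjusted p = 0.000274, limma), and the deacetylase gene HDAC2 9.56, against 10.33. RCOR2, a scaffold paralogue, averaged 6.39 at number 4, against 4.75 elsewhere, and GFI1, a repressor that recruits KDM1A, 10.52, against 9.42.

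Among 17 other H3K4me3 readers 0 passed the test for OICR-9429 (median 0.04, 10 above 0). The highest were MORC3 (0.13), then ING3 and SPIN1, tied at 0.12, and the lowest ZCWPW1 (-0.27) and PHF13 (-0.14). ZCWPW1 had an unadjusted p of 0.0450 in limma with the replicate block. It was the 1 of 17 under 0.05, beside 5.55% of all probe sets. At number 4, 3 of the 17 were higher and 5 lower, beside 26.3% and 25.5% of all probe sets. ING2 and ING4 are paralogues, and ING2 averaged 6.24 at number 4, against 6.98 at the others (adjusted p = 0.00121, limma), the opposite direction to ING4. ING3 was also lower there (-0.66), while ING1 (0.12) and ING5 (-0.085) did not pass. MORC3, a CW-domain ATPase, was lower by a log2 difference of -0.87 and PHF23 higher by 1.19. KDM7A, a paralogue of PHF8, was higher at number 4 by 0.77, where PHF8 was lower, and stood at -1.84 ± 0.21 (SE) at number 1 (adjusted p = 0.00252, limma). PHF2, also a paralogue of PHF8, lay below 0 at number 4 (-0.25) but did not pass.

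Among 21 members of the complexes in which BPTF, ING4 and TAF3 sit, 0 passed the test for OICR-9429 (median 0.01, 12 above 0). The highest were TAF2 (0.39, unadjusted p = 0.0335 in limma with the replicate block, above 0 in 3 of 4 numbers) and MEAF6 (0.18), and the lowest TAF10 (-0.16) and JADE2 (-0.13). TAF2 was the 1 of 21 under 0.05 with that block, beside 5.55% of all probe sets. At number 4, 3 of the 21 were higher and 12 lower, again beside 26.3% and 25.5%. The TFIID subunits TAF2 and TAF4 were lowest, like TAF3, at -2.00 ± 0.18 (SE) and -1.23 ± 0.15, whereas TAF8 was higher by 0.56. JADE2, a scaffold of the HBO1 complex, was higher by 0.81, and ING4 by 0.71. Other listed partners of ING4 were not called higher. MEAF6 (-0.595) and JADE3 (-0.46) were lower, and KAT7 (0.065) and JADE1 (0.027) lay just above 0 and did not pass.

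Of 9 H3K4 writers 0 passed the test for OICR-9429 (median -0.0025, 4 above 0), with KMT2C (0.21) and ASH2L (0.12) highest and KMT2B (-0.17) and KMT2D (-0.12) lowest. At number 4, 0 of the 9 were higher and 7 lower, beside 26.3% and 25.5%, with KMT2C at -2.52 ± 0.18 (SE) and KMT2D at -1.53 ± 0.14 lowest. ASH2L (-0.09) and RBBP5 (-0.24) did not pass there. The median at number 4 was -0.59 for the writers and -0.50 for the 9 demethylases and readers, against 0.08 over all probe sets. That background was not matched for level, and the 9 genes averaged 7.29 to 9.78, above every array median. The difference between lists was not tested.

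**Figure D4:**
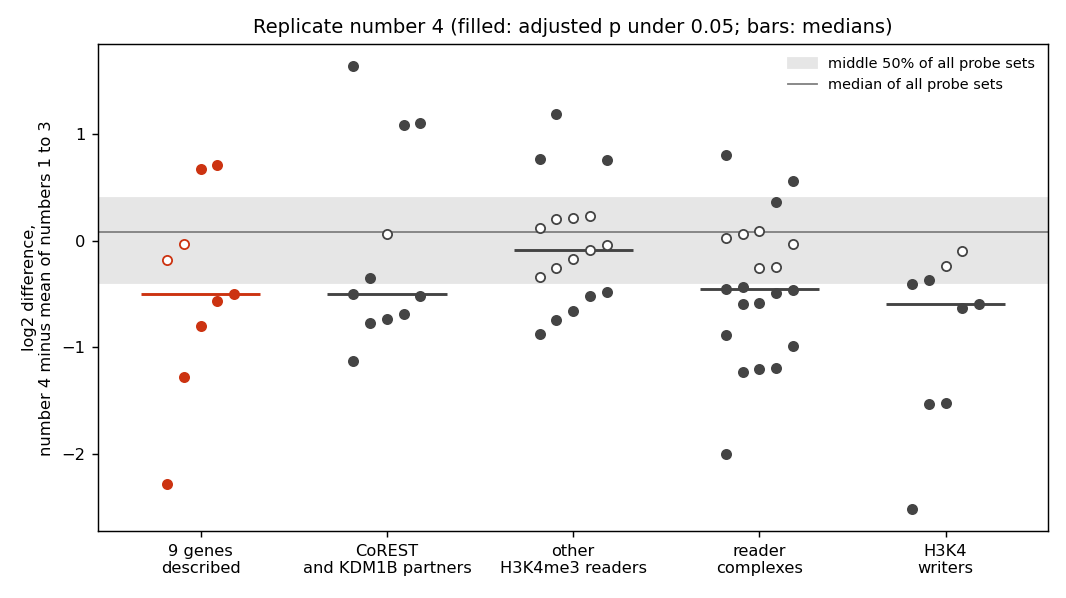
Log2 difference of replicate number 4 from the mean of numbers 1 to 3 for the 9 genes (red) and the genes of 4 partner lists (grey), with filled symbols at an adjusted p under 0.05 (limma) and horizontal bars at list medians. The band holds the middle 50% of all probe sets, from -0.40 to 0.40, and CHD1 (-2.28), TAF2 (-2.00) and KMT2C (-2.52) lie lowest in their lists.

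Profiles over the 8 arrays were compared by the root mean square difference of log2 values after each gene was centred on its own mean, among 17686 other genes. These distances are descriptions, since the 8 arrays form 4 pairs. CHD1 lay nearest to SHPRH (0.0808) and APC (0.0868), TAF3 to ZCCHC4 (0.0939) and TASP1 (0.106), and BPTF to TRIM4 (0.0504) and ZNF585A (0.053). KDM5B lay nearest to PDK1 (0.0979) and ARHGEF7 (0.102), and ING4 to IGBP1 (0.0642) and SKAP1 (0.0827). The remaining genes lay nearest to ZSCAN29 and RPP14 (KDM1B), CRYL1 and KBTBD11 (KDM5A), SLC35E1 and NSG2 (KDM5C), and PSMG2 and TULP3 (PHF8), at 0.047 to 0.0847. Among the 9 genes themselves, KDM5B and ING4 were as near to each other (0.209) as KDM1B and KDM5A were, and KDM5B and CHD1 were farthest apart (1.32).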

How the data were processed

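The deposited values are log2 expression, 1 per probe set. The authors used RMA and Transcriptome Analysis Console, according to the submitters' processing notes. Versions and a genome build were not given in the sources used here. Scanner files were not used, so background and scan batch were not examined. Names are those of the platform annotation, updated by Entrez ID through a RefSeq table. Of 21448 probe sets, 17709 had 1 symbol, 0 several and 3739 none.

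Groups were compared with limma 3.58.1 (R 4.3.3), lmFit and eBayes, over all probe sets and 8 arrays without a block, with Benjamini-Hochberg adjustment and a threshold of 0.05 (two-sided). Numbers were compared in a model with number and treatment. Both fits were tested on simulated data.

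The titles give the replicate numbers. Same-numbered arrays deviated together from their group means, with correlations of 0.696, 0.748, 0.566 and 0.865, above the limit of 0.1, so the numbers pair the samples and the fit with the replicate block is printed where it moves a value.

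The members and lists were chosen with earlier results of these data known. All members are named, for each partner list those with the 2 highest and 2 lowest differences, and for each member the 2 genes nearest in profile. The marker genes named, the 4 promoters and the ING4 letters were chosen after values were seen, as was KDM7A at number 1, the lowest of its list there. PHF2, ING1, ING3, ING5, MEAF6, KAT7, JADE1 and JADE3 at number 4 were also added after values were seen. Alternatives were the block, trend and robust variance, a filter on dim probe sets, median centring and leaving out arrays or numbers. TAF9, SETD1B and COL3A1 were not analysed here.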

Additional observations from a re-analysis of the deposited data

Results flagged for a closer look

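BPTF on the array of untreated replicate 4 was far from the other untreated arrays, at 8.74, where they lay between 9.59 and 9.70. The gap was 0.885 of the group's range, above Dixon's 95% limit for 4 samples. Of 18 groups of 4 arrays examined (9 genes, both treatments), 1 was marked in this way, and chance marks about 1 in 20. OICR-9429 replicate 4 was also the lowest of its group for BPTF, at 8.96.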

How the results depend on the processing

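The counts of probe sets and of the 9 genes that differed with OICR-9429 stayed at 0 under every alternative run, including the replicate block, which raised the count of probe sets with an unadjusted p under 0.05 to 1191, against 105 without it. The replicate block changed no other call. Leaving out an array or a number gave differences (OICR-9429 minus untreated) of -0.053 to 0.23 for KDM1B, -0.15 to 0.37 for KDM5B, -0.14 to 0.26 for BPTF, -0.43 to 0.71 for CHD1, -0.13 to 0.29 for ING4 and -0.34 to 0.30 for TAF3, with both signs for each, while KDM5A, KDM5C and PHF8 kept theirs in all 12 such fits. When both arrays of a number were left out, the sign also held in 4 of 4 fits for KDM5B (0.08 to 0.13), CHD1 (0.087 to 0.25) and ING4 (0.02 to 0.14). In an alternative chosen after seeing the data, the replicate block without number 2 gave -0.03 for KDM1B, -0.013 for BPTF and -0.0033 for TAF3, and the replicate block without number 4 gave -0.093 for TAF3. The count of probe sets that differed between numbers ran from 2979 to 10394 (10791 with all arrays) when arrays or numbers were left out, and that of the 9 genes from 2 to 7, both lowest without number 4. The count of calls of single numbers over the 9 genes was 12. It ran from 4 (without number 4) to 14 when arrays or numbers were left out. With median centring it was 13, with trend and robust variance 17, and with only probe sets above the median level 19. That filter left the differences themselves the same, but fewer probe sets were tested and limma estimated its variances again from those kept. CHD1 at number 1 ran from -0.21 to 1.09. The 7 genes that differed between numbers also numbered 7 with trend and robust variance, the median filter and median centring. The mean of several probe sets per gene was not run, since each of the 9 genes had 1.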
